A study of Bos taurus with 8 samples.

Results

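Of the 16606 genes in the deposited expression table, 193 were higher at the 8-cell stage than at the 4-cell stage both in control bovine embryos and in embryos edited in RPL12. A gene was taken when, within each condition, its mean 8-cell level was at least 1.5 times its mean 4-cell level and its lower 8-cell value exceeded its higher 4-cell value. A mean of at least 2 CPM over the 4 libraries of the 8-cell stage was also required. CPM are reads per 1000000 reads. The columns used summed to 992528 to 1007024 CPM, so each value is close to a share of its library. Such a value says nothing of the amount of RNA per embryo. The measured stage changes chose these genes, and the stage changes are therefore described below without a test.

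The samples were Bos taurus embryos produced by in vitro maturation and fertilisation of oocytes from slaughterhouse ovaries. There were 2 libraries in each of 4 groups, which were 4-cell control, 8-cell control, 4-cell edited and 8-cell edited embryos. The edited embryos received PEmax, an improved prime editor made of a Cas9 nickase and a reverse transcriptase, with a guide RNA by injection into the zygote cytoplasm. The labels name the edit RPL12 A148G without saying from where the position is counted, and they call it base editing in the titles and prime editing in the protocol. RPL12 encodes a protein of the large ribosomal subunit. Each library came from a pool of 5 embryos, and full-length cDNA was amplified from their polyadenylated RNA. The share of edited alleles, the removal of cumulus cells and any injection of the controls are not given in the sources used here. The 4-cell samples have oocytes as their source name and 4-cell embryo in their titles, and the titles were followed. Libraries of a group are separate samples by their labels only, so the p-values measure the spread between these pools.

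The first cleavages of a mammalian embryo run on RNA and protein stored in the oocyte. Transcription from the embryo's own genome then takes over while stored transcripts are degraded, and in cattle the main wave of this activation is placed at about the 8-cell stage. Genes known from this time in other mammals include the double-homeobox factor DUXA, the zinc finger gene ZSCAN4 and the Krüppel-like factor KLF17. Stored transcripts can also gain poly(A) tail during these cleavages, and a library built on poly(A) then holds more of them without new transcription.

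The libraries held 33527531 to 35122409 reads assigned to genes. The level of RPL12 was 159 and 174 CPM in 4-cell controls, 96.3 and 97.6 CPM in 8-cell controls, 27.5 and 33.6 CPM in 4-cell edited and 14.1 and 11.9 CPM in 8-cell edited embryos. Of the 80 tested genes of cytosolic ribosomal proteins 74 were also called lower in edited embryos, beside 27.2% of all tested genes. Averaged over both stages (limma, described below), their median log2 fold change was -1.66 and that of RPL12 was -2.61. The groups also differed in markers of cells other than the embryo. The 24 cumulus and granulosa markers, genes of the somatic cells around the oocyte, summed to 3340.0 and 3089 CPM in 4-cell controls and to 1378 and 1965 CPM in 8-cell controls. They summed to 802 and 883 CPM in 4-cell edited and to 751 and 764 CPM in 8-cell edited embryos. A large part of the control sums was TIMP1, at 1429 and 1594 CPM in 4-cell controls and 146 and 244 CPM in 4-cell edited embryos. Of the 20 markers tested, 12 were called lower in edited embryos averaged over both stages and 2 higher. STAR, FDX1, PTGS2 and CYP19A1 were among those not called. Between 14 and 20 of the 24 reached 1 CPM in a library, and the granulosa markers FOXL2 and LHCGR stood at 0.464 CPM or less in every library. The 11 mesenchymal and theca markers summed to 3346 to 7930.4 CPM in controls and to 221 to 2264 CPM in edited embryos, with the theca marker CYP17A1 at 0.0598 CPM or less. LUM made up most of the sum in each library, at 2449 to 5965 CPM in controls and 120 to 1897 CPM in edited embryos. All 10 tested markers of this list were called lower in edited embryos averaged over both stages. The 6 leukocyte markers in the table summed to 24.01 to 43.8 CPM and the 4 sperm transcripts to 14.9 to 33.3 CPM. All 12 oocyte and early embryo markers were at or above 1 CPM in every library. In pooled embryos, fewer cells of a type and less RNA per cell cannot be told apart.

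The rise conditions were met by 1750 genes in controls and by 1383 genes in edited embryos. These are 14.4% and 11.4% of the 12129 tested genes, those with a mean of at least 1 CPM over the 8 libraries. The 193 shared genes were 11.0% of the control set and 13.96% of the edited set, close to the 11.4% and 14.4% of all tested genes that met the condition in the other arm. All 193 passed the filter on low values. The median ratio of 8-cell to 4-cell level was 1.96 in controls (quartiles 1.69 and 3.11) and 1.85 in edited embryos (quartiles 1.63 and 2.77). Over all tested genes these medians were 1.01 and 0.963. For 131 of the genes the smaller of both ratios was under 2, for 34 it lay from 2 to 5 and for 28 it was at least 5. The ratio was larger in controls for 111 genes and larger in edited embryos for 82.

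**Figure D1:**
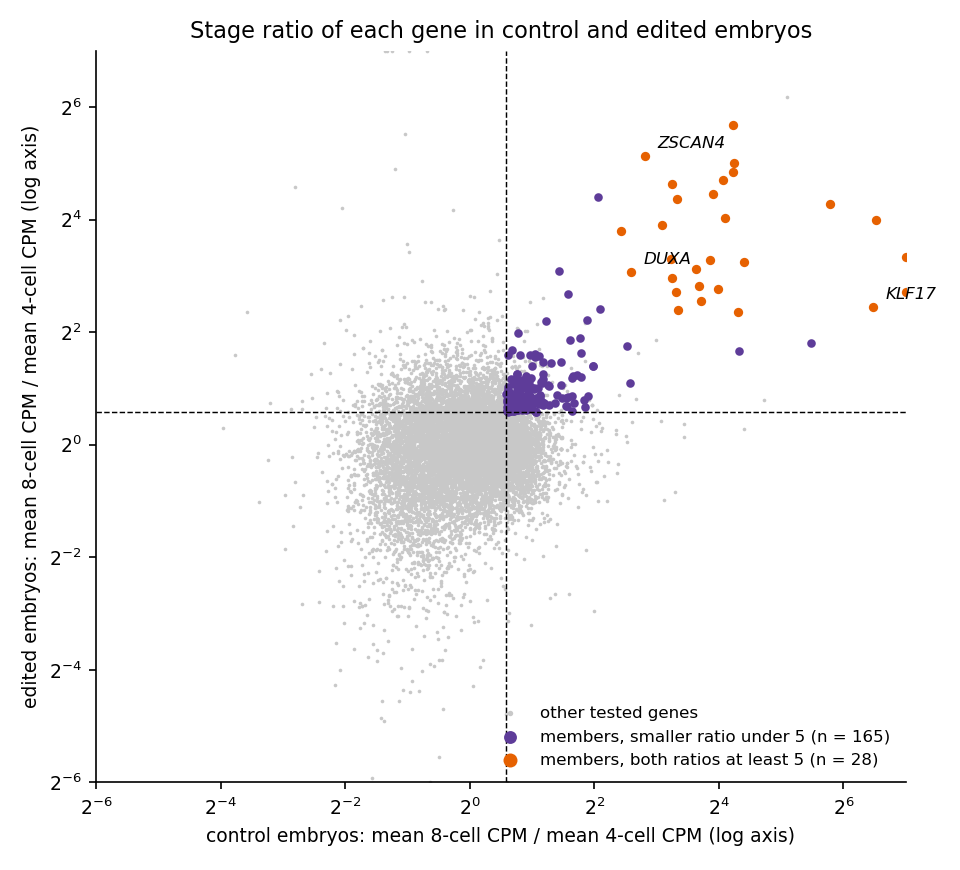
Ratio of mean 8-cell to mean 4-cell CPM for tested genes in control embryos (horizontal, log axis) and edited embryos (vertical, log axis). Tested genes with an 8-cell mean of 0 in either condition are left out. Dashed lines mark the ratio of 1.5, and ratios beyond the axes, among them those against a 4-cell mean of 0, are drawn at the edge. The 28 genes with both ratios of at least 5 are drawn in a colour of their own, and 131 of the 193 have a smaller ratio under 2, close to the lines.

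The rule sits in a dense stretch of genes. Just inside it were DYNC1I1, a dynein intermediate chain, with a smaller ratio of 1.5009, MCM3 with 1.5037 and TRIM77 with 1.5041. Just outside, with every other condition met, were PPL with 1.4991, ANGEL1 with 1.4971 and EXD1 with 1.4881. Within 0.25 below the ratio of 1.5 lay 288 further genes that met the other conditions. The steep end was sparser: of the genes that met the rise conditions, 43 in controls and 43 in edited embryos had a ratio of at least 5, each 0.355% of the tested genes. The 28 shared genes are 65.1% of each. Outside the 193, NOXRED1 was the 1 tested gene with both ratios of at least 5, and it was held out by an 8-cell edited library at 0 CPM.

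These 28 steep genes are a tier drawn after the values were seen. LOC112442416, with a smaller ratio of 5.16, was just inside the tier and LOC504295, with 4.28, just outside it. The 28 genes had low levels at the 4-cell stage. Their summed level was 9.56 and 44.6 CPM in 4-cell controls and 429 and 409 CPM in 8-cell controls. In edited embryos it was 69.5 and 31.8 CPM at the 4-cell stage and 621 and 903 CPM at the 8-cell stage. Each 8-cell library thus held more than each 4-cell library, and for all 28 genes the 4 libraries of the 8-cell stage lay above the 4 of the 4-cell stage. The number of the 28 genes at or above 1 CPM was 2 and 14 in 4-cell controls, 18 and 12 in 4-cell edited embryos and 28 in every 8-cell library. Libraries within a group differed: 24 of the 28 were higher in 4-cell control library 2 than in library 1, compared with 52.9% of all tested genes.

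Among the steep genes only DUXA, ZSCAN4 and KLF17 carried a gene symbol, and the other 25 had a locus name beginning with LOC. Locus names made up 23.3% of the 193 genes, 12.1% of the 165 less steep ones and 4.02% of the tested genes. Among genes that met the rise conditions in edited embryos only or in controls only they made up 2.77% and 4.56%. These shares are a description, since the steep tier was drawn on the same values.

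DUXA stood at 2.32 and 1.91 CPM in 4-cell controls, 16.8 and 8.51 CPM in 8-cell controls, 2.89 and 4.53 CPM in 4-cell edited and 16.3 and 46.1 CPM in 8-cell edited embryos. Its ratio was 6.00 in controls and 8.40 in edited embryos, and the stages did not overlap. The highest value was in 8-cell edited library 2.

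ZSCAN4, which in mouse cells is linked to telomere maintenance, was listed at 0 and 1.64 CPM in 4-cell controls and stood at 7.95 and 3.55 CPM in 8-cell controls. In edited embryos it stood at 0.289 and 0.468 CPM and then at 6.72 and 19.8 CPM. As for DUXA, the highest level was in 8-cell edited library 2 and the lowest 8-cell level in 8-cell control library 2.

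KLF17 stood at 0.0579 and 0 CPM in 4-cell controls and at 3.15 and 2.04 CPM in 8-cell controls. That is 2 reads against 179, a ratio of 89.5 with a 95% interval of 24.4 to 743 that covers counting error only. In edited embryos it stood at 0.405 and 0.292 CPM and then at 2.00 and 1.80 CPM, a ratio of 5.45. The 4-cell edited libraries were above both 4-cell control libraries, and the 8-cell edited libraries were below both 8-cell control libraries.

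The most abundant steep gene was LOC789309, at 2.202 and 9.29 CPM in 4-cell controls, 106 and 86.1 CPM in 8-cell controls, 10.9 and 3.42 CPM in 4-cell edited and 128 and 246 CPM in 8-cell edited embryos. LOC100141128 stood at 0.435 and 5.48, then 61.9 and 49.8 CPM in controls, and at 3.47 and 2.78, then 58.5 and 142 CPM in edited embryos. LOC511494 stood at 0.464 and 1.29, then 42.1 and 54.5 CPM in controls, and at 7.0 and 2.52, then 79.4 and 105 CPM in edited embryos. In these 3 genes the 8-cell libraries exceeded every 4-cell library, and 8-cell edited library 2 was the highest.

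LOC523458 and LOC785853 had 0 reads in both 4-cell control libraries and 186 and 184 reads in the 8-cell controls. Against 3 reads per library they were at least 31.0-fold and at least 30.4-fold higher. In edited embryos LOC523458 stood at 0.578 and 0.526 CPM at the 4-cell stage and at 4.72 and 2.55 CPM at the 8-cell stage, and LOC785853 at 0.521 and 0.205 and then at 4.54 and 2.82 CPM. Both were thus detected in every library but the 4-cell controls.

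**Figure D2:**
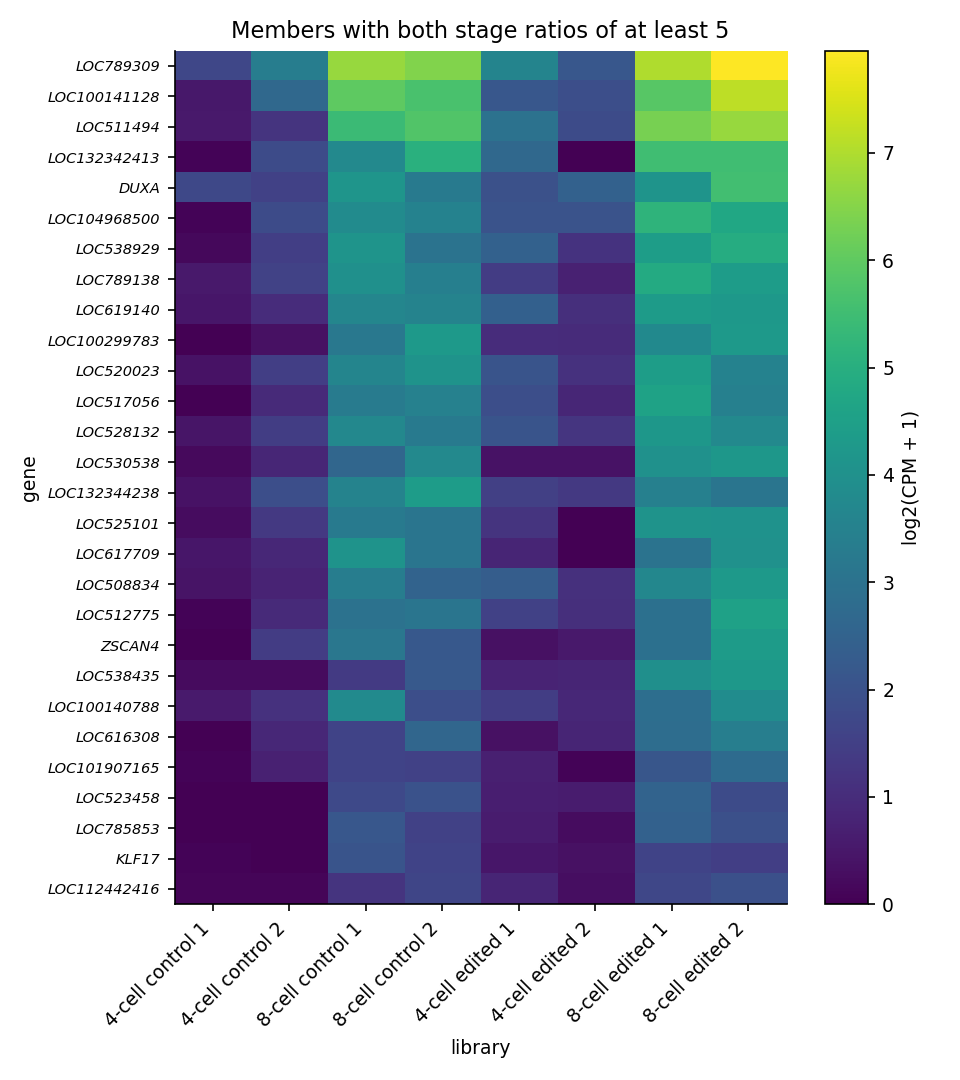
Level of each of the 28 steep genes (rows, by mean 8-cell CPM) in each of the 8 libraries (columns), coloured by log2(CPM + 1). The 4 columns of the 8-cell stage are the brighter ones in each row, and 4-cell control library 1 is the darkest column, with 2 of the 28 genes at or above 1 CPM.

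The table gives no function for locus names, but their place in the genome could be read from the RefSeq annotation of the assembly ARS-UCD2.0, in which 191 of the 193 symbols were found. The build behind the table is not given in the sources used here, so only gene order was used. In that order 23 of the genes stood in 8 runs of directly neighbouring table genes. How many of any other set of 193 genes would stand in such runs was not computed, so the count is a description. The longest stretch was made of steep genes. Between LRRC38 and AADACL3 the table has 9 genes, of which 8 belonged to the steep genes: LOC520023, LOC525101, LOC789138, LOC132342413, LOC528132, LOC617709, LOC530538 and LOC100299783. The ninth, LOC517884, was below the filter. RefSeq places 13 genes in this stretch, of which 4 are not in the table.

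The 8 genes between LRRC38 and AADACL3 summed to 1.97 and 11.5 CPM in 4-cell controls and to 88.3 and 113 CPM in 8-cell controls. In edited embryos they summed to 16.9 and 4.47 CPM and then to 161 and 155 CPM. LOC132342413 was the most abundant of them, at 0.0579 and 2.55 CPM in 4-cell controls, 12.4 and 32.3 CPM in 8-cell controls, 5.44 and 0 CPM in 4-cell edited and 44.4 and 44.3 CPM in 8-cell edited embryos. LOC100299783 went from 0 and 0.293 to 8.12 and 18.7 CPM in controls and from 1.01 and 0.965 to 12.6 and 18.9 CPM in edited embryos. LOC530538 stood at 0.145 and 0.792, then 5.12 and 12.4 CPM in controls, and at 0.318 and 0.322, then 15.1 and 17.6 CPM in edited embryos.

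The genes at either end did not share this pattern. LRRC38 stood between 0.289 and 2.49 CPM in all libraries, with no separation of the stages. AADACL3 stood between 0 and 0.777 CPM. In controls AADACL3 was lower at the 8-cell stage, at 0.551 and 0.235 and then 0 and 0 CPM, and in edited embryos its stages overlapped. LOC517884, inside the run, stood at 0 and 0.176, then 1.20 and 0.0591 CPM in controls, and at 0.376 and 0, then 2.00 and 0.899 CPM in edited embryos. Its ratios, 7.17 in controls and 7.71 in edited embryos, were in the range of the steep genes, but its stages overlapped in controls. Neighbouring copies of a gene can share reads, so how the counting split reads among these loci is uncertain.

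**Figure D3:**
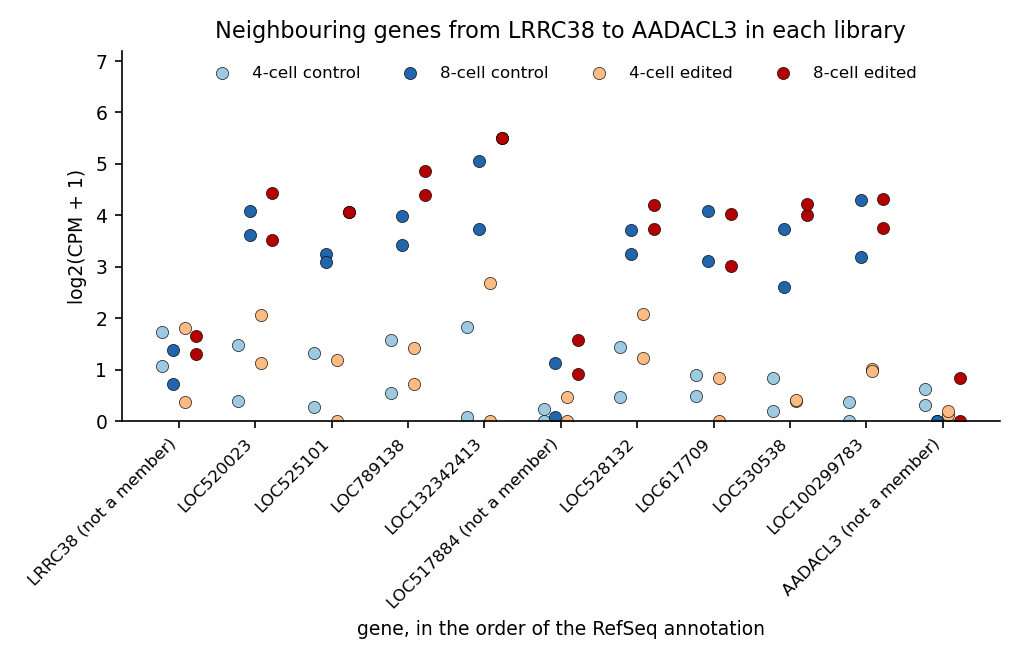
Level (log2(CPM + 1)) of the table genes from LRRC38 to AADACL3 in RefSeq order, with 1 point per library and the 4 groups in colour. In the 8 genes of the set the 8-cell points lie above all 4-cell points, while LRRC38 and AADACL3, at the ends, stay at 2.49 CPM or less in every library.

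Other runs were smaller. DUXA adjoined ZIM3, a KRAB zinc finger gene, which stood at 2.03 and 5.10, then 16.0 and 9.49 CPM in controls, and at 6.42 and 13.6, then 19.1 and 15.5 CPM in edited embryos. The steep genes LOC517056, LOC785853 and LOC619140 stood side by side. LOC132344238, LOC112444922, LOC616308 and LOC520034 formed a run of 4, of which LOC132344238 and LOC616308 were steep. OOEP adjoined DDX43, ADCY3 adjoined CENPO, and LOC112445077 adjoined LOC100850168. The values of LOC100850168 and MGC148328 were identical in every library, so the 193 names hold 192 distinct profiles. Both read 2.35 and 5.19, then 6.75 and 23.1 CPM in controls, and 7.40 and 17.8, then 33.8 and 32.3 CPM in edited embryos.

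The 165 less steep genes were mostly expressed before the 8-cell stage. Their summed level was 7659 and 9249 CPM in 4-cell controls, 14894 and 14516 CPM in 8-cell controls, 13648 and 10672 CPM in 4-cell edited and 20357 and 21029.6 CPM in 8-cell edited embryos. This was a ratio of 1.74 in controls and 1.70 in edited embryos, and 4-cell edited library 1 was close below the 8-cell controls. For 68 of the 165 all 8-cell libraries exceeded all 4-cell libraries. For 18 the 4-cell edited mean was above the 8-cell control mean, compared with none of the 28 steep genes and 45.6% of the tested genes. The rule and the steep tier chose genes on these same levels, so such counts are fixed in part and nothing is read from them. The 12 oocyte and early embryo markers summed to 18575 and 24470.4 CPM in 4-cell and 47099 and 34893 CPM in 8-cell controls. In edited embryos the markers summed to 42542 and 51534 CPM and then to 48890.1 and 52284 CPM, a ratio of 1.08. BTG4, a factor of maternal mRNA decay, made up most of these sums, with ratios of 2.10 in controls and 0.943 in edited embryos. The other 11 markers summed to 6559 and 9545 CPM in 4-cell and 13906 and 11414 CPM in 8-cell controls, a ratio of 1.57, and their ratio in edited embryos was 1.39. Of the 12, OOEP met the rise conditions in both conditions, 5 in controls only and 3 in edited embryos only. The part of stored transcripts, and of the somatic cell markers given above, in the ratios of these genes was not tested.

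**Figure D4:**
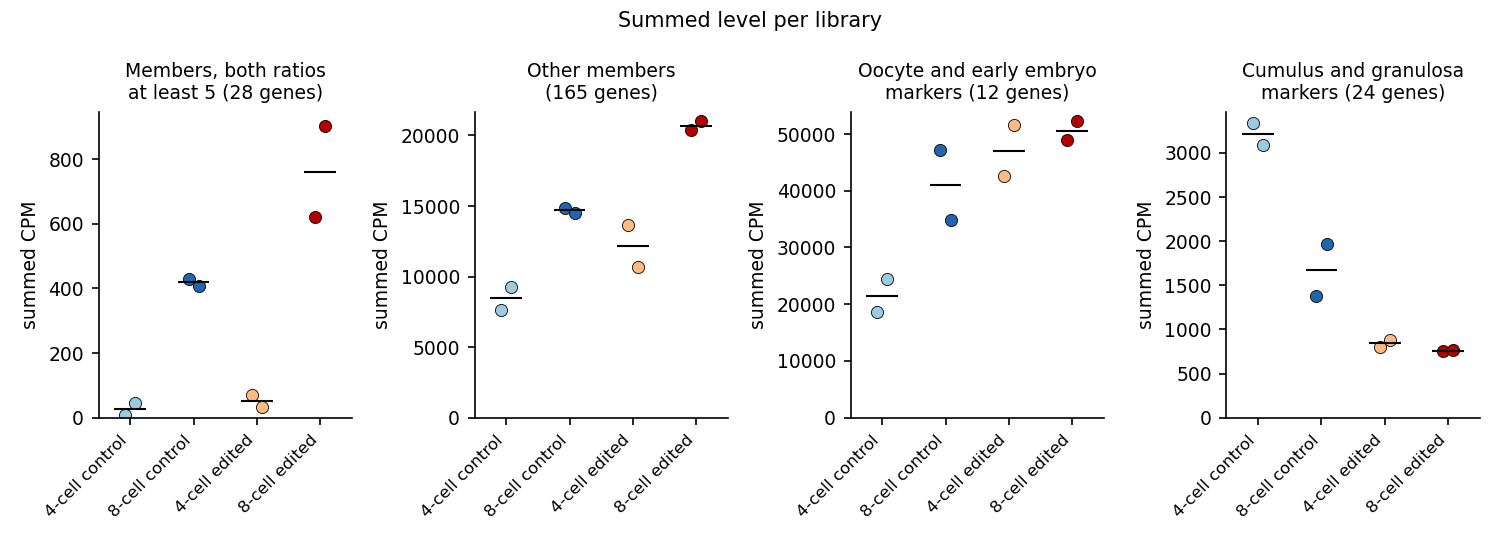
Summed CPM per library (points, 2 per group) with the group mean (line) for the 28 steep genes, the 165 other genes, 12 oocyte and early embryo markers and 24 cumulus and granulosa markers. The steep genes are low in every 4-cell library, at 69.5 CPM or less, whereas the other 165 start from 7659 CPM or more.

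The members are grouped below by what their products are known to do, a grouping made after the values were seen. The first group holds genes known from the germ line and the oocyte. OOEP, a subunit of the subcortical maternal complex of oocytes, stood at 206 and 166 CPM in 4-cell controls, 275 and 332 CPM in 8-cell controls, 281 and 183 CPM in 4-cell edited and 362 and 474 CPM in 8-cell edited embryos. The highest 4-cell library was thus above the lower 8-cell control library. DDX43, a DEAD-box RNA helicase of the germ line, stood at 19.8 and 38.7, then 57.2 and 54.3 CPM in controls, and at 64.2 and 77.9, then 108 and 176 CPM in edited embryos. Its 4-cell edited values exceeded its 8-cell control values.

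MAJIN, which anchors telomeres to the nuclear envelope in meiosis, stood at 29.6 and 19.9, then 30.7 and 53.1 CPM in controls, and at 33.3 and 30.7, then 62.0 and 80.8 CPM in edited embryos. H1-6, a testis linker histone, stood at 10.9 and 6.07, then 21.3 and 17.3 CPM in controls, and at 25.4 and 15.9, then 25.6 and 42.1 CPM in edited embryos. The stages of H1-6 in edited embryos were nearly in contact, at 25.4 and 25.6 CPM. NAA11, the catalytic subunit of an N-terminal acetyltransferase found in testis, stood at 15.5 and 11.99, then 32.5 and 22.7 CPM in controls, and at 30.0 and 39.3, then 46.4 and 67.7 CPM in edited embryos.

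CCNA1, the germ line A-type cyclin, stood at 5.77 and 6.45, then 18.3 and 7.77 CPM in controls, and at 11.2 and 8.63, then 17.4 and 22.5 CPM in edited embryos. PROCA1, named for its interaction with cyclin A1, stood at 7.30 and 8.00, then 9.73 and 14.2 CPM in controls, and at 24.2 and 14.7, then 27.05 and 31.6 CPM in edited embryos. TRIM77, a tripartite motif gene, stood at 379.5 and 580.4, then 905 and 1102 CPM in controls, and at 1184 and 827, then 1376 and 1649 CPM in edited embryos. Separation by stage within a condition was required of every member by the rule. For TRIM77 and PROCA1 both 8-cell edited libraries were the highest of all.

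A further group is known from cell division. CENPV, a centromere protein gene and the most abundant member with a gene symbol, stood at 1179 and 979, then 1473 and 1869 CPM in controls, and at 1672 and 1128, then 2214 and 2254 CPM in edited embryos. UBE2C, the ubiquitin-conjugating enzyme of the anaphase-promoting complex, stood at 115 and 186, then 213 and 338 CPM in controls, and at 303 and 197, then 419.9 and 392 CPM in edited embryos. MCM3, a subunit of the replicative helicase, stood at 38.9 and 46.8, then 60.4 and 70.1 CPM in controls, and at 70.7 and 47.6, then 102 and 76.2 CPM in edited embryos. The kinetochore gene CENPO had a ratio of 1.54 in controls and 1.51 in edited embryos. Stages overlapped between conditions in CENPV, UBE2C and MCM3, whose highest 4-cell library was an edited one and lay above at least 1 of the 8-cell control libraries.

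Other members handle RNA or protein. PARN, a deadenylase that shortens poly(A) tails, stood at 262 and 444, then 625 and 497 CPM in controls, and at 513 and 492, then 779 and 793 CPM in edited embryos. AHSA1, an activator of the chaperone HSP90, stood at 655 and 822, then 1325 and 1168 CPM in controls, and at 988 and 731, then 1416 and 1695 CPM in edited embryos. In AHSA1 every 8-cell library exceeded every 4-cell library, which was not so for PARN. MRPL20, of the mitochondrial ribosome, had ratios of 1.51 and 1.52, and MTERF3, a factor of mitochondrial gene expression, 1.52 in both conditions. PSME3IP1, which binds a proteasome activator, stood at 566 and 686, then 1250.3 and 931 CPM in controls, and at 751 and 688, then 1245 and 1300.0 CPM in edited embryos, with no overlap of stages.

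Stress and death genes were also present. DDIT3, the transcription factor CHOP of the integrated stress response, stood at 228 and 256, then 442 and 396 CPM in controls, and at 476 and 344, then 575 and 730.0 CPM in edited embryos. PMAIP1, the pro-apoptotic protein NOXA, stood at 1.62 and 1.23, then 3.83 and 3.07 CPM in controls, and at 4.69 and 3.80, then 5.29 and 8.48 CPM in edited embryos. In both genes at least 1 of the 4-cell edited libraries was above both 8-cell controls.

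The next genes encode further transcription factors, nuclear receptors and a signalling ligand. ESRRG, an orphan nuclear receptor, stood at 35.3 and 54.6, then 93.9 and 74.8 CPM in controls, and at 91.3 and 102, then 154 and 142 CPM in edited embryos. ZBTB16, a zinc finger repressor known in spermatogonia, stood at 24.98 and 38.6, then 43.0 and 59.2 CPM in controls, and at 39.9 and 22.2, then 51.4 and 49.8 CPM in edited embryos. ESRRG was shifted up in edited embryos at both stages, whereas ZBTB16 overlapped between conditions. The nuclear receptor RORA had ratios of 1.78 in controls and 1.72 in edited embryos, the cell cycle factor E2F2 1.97 and 2.07, and the homeobox gene HOXA7 1.53 and 2.04. GDF3, a ligand of the TGF-beta family, stood at 82.2 and 122, then 163 and 155 CPM in controls, and at 150.1 and 108, then 213 and 179.8 CPM in edited embryos.

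Transporters, channels and metabolic enzymes completed the named genes. ABCB11, the bile salt export pump, had ratios of 2.27 and 2.38 and went from 10.6 and 15.2 to 35.3 and 23.2 CPM in controls and from 15.6 and 27.03 to 61.5 and 39.8 CPM in edited embryos. ALDH1A2, which makes retinoic acid, stood at 14.95 and 27.1, then 42.0 and 32.4 CPM in controls, and at 45.3 and 25.9, then 65.1 and 66.8 CPM in edited embryos. The glycine transporter SLC6A5 had ratios of 1.77 and 2.13, the sperm potassium channel subunit LRRC52 2.80 and 1.77 and the calcium pump ATP2B4 1.87 and 2.03. NADK, the kinase that makes NADP, had 1.71 and 3.98 and was the lowest in 4-cell edited embryos, at 3.5 and 1.99 CPM. TRPM8, the cold-sensing channel, ran the other way from most between conditions, at 1.19 and 3.05, then 4.66 and 4.14 CPM in controls, and at 0.376 and 1.11, then 2.78 and 1.77 CPM in edited embryos.

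The most abundant of all 193 was LOC513055, which RefSeq gives the synonym RGS2 although the table has a separate RGS2 gene, so that its reads may be shared with a copy. It stood at 572 and 953, then 1642 and 1712 CPM in controls, and at 1838 and 1189, then 3367 and 3166 CPM in edited embryos. Levels of different genes are per library and not per length, so the order of abundance between genes also depends on transcript length.

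Against 26 gene lists, 21 of pathways and 5 of cell markers, the genes were thinly spread, and 13 lists had no member among them. The lists were chosen with results of these data known. Of 40 listed genes of embryonic genome activation 28 were in the table and 23 were tested, and CCNA1, ZSCAN4, KLF17 and DUXA were members. Those are 17.4% of the tested ones beside 1.59% of all tested genes, which is no independent evidence for the list. A further 3 met the rise conditions in controls only and 4 in edited embryos only. KLF4, a pluripotency factor, stood at 2.55 and 2.02, then 4.75 and 5.97 CPM in controls, but at 14.7 and 13.9, then 8.85 and 6.14 CPM in edited embryos. YAP1, the Hippo pathway coactivator, stood likewise at 7.10 and 11.2, then 15.8 and 15.2 CPM in controls and at 26.6 and 22.4, then 17.2 and 14.7 CPM in edited embryos. GATA3, a trophectoderm factor, was higher at the 8-cell stage in edited embryos only, at 14.7 and 13.0 and then 35.7 and 26.99 CPM, with 20.98 and 26.0 and then 21.1 and 25.5 CPM in controls. EIF1AX, often used to mark activation in cattle, was not higher at the 8-cell stage in either, at 434 and 294, then 214 and 282 CPM in controls and at 138 and 141, then 121 and 134 CPM in edited embryos.

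No member came from the lists of RNA polymerase and transcription machinery (127 tested), splicing (142), ribosome biogenesis (105), cytosolic ribosomal proteins (80), proteasome (47), chromatin modifiers (133), oxidative phosphorylation (80), interferon-stimulated genes (26) or m6A machinery (23). At 1.59% of tested genes, lists of this size would hold few by that share alone. Zinc finger genes gave 4 of 275 tested, ZNF76, ZBTB16, ZSCAN4 and ZIM3. Cell cycle regulators gave CCNA1 and MCM3 of 109, ubiquitin enzymes USP49 and UBE2C of 87, and chaperones AHSA1 and DNAJC17 of 77. The translation factor list gave PABPC5, histones H1-6, mitochondrial ribosomal proteins MRPL20, deadenylation PARN, p53 targets PMAIP1, pluripotency factors KLF17 and oocyte-stored transcripts OOEP. The cumulus and granulosa, mesenchymal and theca, leukocyte and sperm lists gave none, and the oocyte and early embryo markers gave OOEP.

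Whether the 193 genes also differed between edited and control embryos was tested with limma on log2(CPM + 1), a contrast that the rule did not use. Averaged over both stages or taken at a single stage, it is still built from library values that also chose the genes. How far the rule shaped any of these results, including the shares called higher or lower and the share of positive values, was not tested. Genes are called at a Benjamini-Hochberg adjusted p-value under 0.05 over the 12129 tested genes. Averaged over both stages 51 of the 193 were called, beside 44.8% of the tested genes. Of these, 50 were called higher in edited embryos, where 17.6% of the tested genes were, and 1 was called lower, where 27.2% were. The 50 are 25.9% of the set and the 1 is 0.518%. The median log2 fold change of the 193 was 0.41, that of the 28 steep genes 0.56 and that of the tested genes 0.035. Of the 193, 167 had a positive value, 86.5% beside 51.9% of the tested genes. Of the 50 called higher 41 had both edited libraries above both control libraries at each stage. The call rests on the same libraries and no share over all genes called higher is set beside the 41, so nothing is read from it. Of the 50, 7 were steep: LOC538435, LOC511494, LOC104968500, LOC508834, LOC538929, LOC619140 and DUXA. The shift up was not particular to the 193 genes. Of the 12 oocyte and early embryo markers tested 6 were called higher and 0 lower. Of 46 oocyte-stored transcripts tested 17 were called higher and 1 lower, and of 109 cell cycle regulators 35 and 14. The cumulus and granulosa markers moved the other way between these groups, with an edited to control ratio of summed levels of 0.262 in 4-cell and 0.453 in 8-cell embryos. Of the 20 markers tested 12 were called lower, while HAS2 and GREM1, genes of the cumulus matrix and of BMP antagonism, were called higher like the members, with log2 fold changes of 1.13 and 0.64. With a score of these markers as a covariate 1 of the 193 was called, and in this design the markers and the editing cannot be told apart. Without 4-cell control library 1, or without 4-cell edited library 1, 28 were called.

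Among the members with a gene symbol DDX43 had the smallest p-value, with a log2 fold change of 1.31 (limma, SE 0.220, adjusted p-value 0.000177). ESRRG followed with 0.97 (limma, SE 0.179, adjusted p-value 0.000399), then NAA11 with 1.14 (limma, SE 0.216, adjusted p-value 0.000477) and PROCA1 with 1.22 (limma, SE 0.239, adjusted p-value 0.000655). In each of these 4 genes both edited libraries were above both controls at both stages. TRIM77 and TMEM225B had changes of 0.83 and 0.76 with limma adjusted p-values of 0.00124 and 0.00129. TMEM225B stood at 293 and 387, then 583 and 670.3 CPM in controls, and at 713 and 510.0, then 1095 and 925 CPM in edited embryos. Of the activation genes DUXA passed, with 0.86 (limma, SE 0.328, adjusted p-value 0.0437), and its 4-cell edited values of 2.89 and 4.53 CPM exceeded both controls, while at the 8-cell stage the groups overlapped. With the marker covariate the value of DUXA was -0.84 and no longer called, and its call was lost in 8 other settings of the processing. ZSCAN4 had 0.37 (limma, SE 0.381, adjusted p-value 0.448), KLF17 0.05 (SE 0.268, 0.900) and CCNA1 0.64 (SE 0.274, 0.0676), none of which passed. TRPM8 was the gene called lower, at -0.77 (limma, SE 0.299, adjusted p-value 0.0459). Its call was lost in 12 other settings of the processing, and with the marker covariate the value was 0.02.

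**Figure D5:**
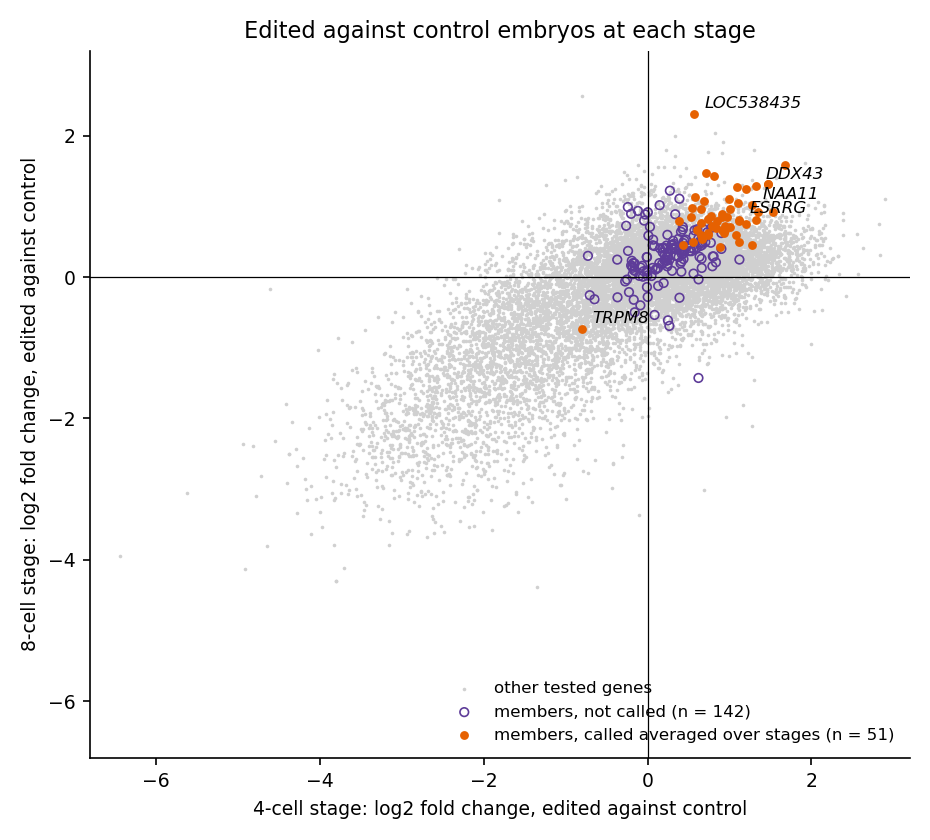
Log2 fold change of edited against control embryos at the 4-cell stage (horizontal) and at the 8-cell stage (vertical) for each tested gene, on the log2(CPM + 1) scale. Of the 193 members 51 are called averaged over stages, and most members lie above 0 at both stages, whereas the other tested genes spread to both sides.

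At the 4-cell stage 25 of the 193 were called higher in edited embryos, where 18.9% of the tested genes were, and 0 lower, where 25.8% were. The share called higher, 13.0%, was below that of all tested genes, although the median log2 fold change was 0.41 beside -0.02 over all tested genes. Both 4-cell edited libraries lay above both controls for 89 of the 193, compared with 33.5% of the tested genes, and below them for 6, compared with 37.5%. ESRRG led, with a log2 fold change of 1.12 (limma, SE 0.253, adjusted p-value 0.00201). TRIM77 had 1.07 (limma, SE 0.250, adjusted p-value 0.00249). LOC511494 was the 1 steep gene called, at 1.53 (limma, SE 0.401, adjusted p-value 0.00552). The count was 7 without 4-cell control library 1, 9 without 4-cell edited library 1 and 0 with the marker covariate, and DESeq2 and edgeR on recovered reads each called 35.

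At the 8-cell stage 7 of the 193 were called higher in edited embryos, where 1.08% of the tested genes were, and 1 lower, where 14.5% were. Both 8-cell edited libraries lay above both controls for 112 of the 193, compared with 27.7% of the tested genes, and below them for 8, compared with 32.7%. The median log2 fold change was 0.42, beside 0.005 over all tested genes. Those above at both stages were 64 (15.3% of the tested genes) and those below at both 1 (24.0%). LOC538435 was the steep gene called and had the smallest p-value among the members: it stood at 0.174 and 0.176, then 1.57 and 3.70 CPM in controls, and at 0.723 and 0.760, then 14.5 and 18.0 CPM in edited embryos. Its 8-cell log2 fold change was 2.31 (limma, SE 0.401, adjusted p-value 0.000622), and the groups did not overlap at either stage. DDX43 had 1.29 (limma, SE 0.311, adjusted p-value 0.00800) and PROCA1 1.24 (limma, SE 0.339, adjusted p-value 0.0177). LOC513055, LOC101904879, NAA11 and ESRRG were the others called higher. The call lower was LOC112444922, at 0.579 and 1.26, then 16.9 and 19.8 CPM in controls, and at 2.89 and 1.17, then 4.51 and 8.33 CPM in edited embryos, a log2 fold change of -1.43 (limma, SE 0.422, adjusted p-value 0.0284). The count of calls was 3 with no filter on low values, 1 with the marker covariate, 4 with edgeR on recovered reads and 22 with only the 8-cell libraries fitted. It was 15 without either 4-cell control library, and 4 or 5 without any 1 of the 8-cell libraries.

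The size of the rise in edited embryos was set beside that in controls through limma's interaction term. It called 480 genes, 3.96% of those tested, and 0 of the 193. Because the rule required a rise in both conditions, the 0 is fixed in part by the choice of genes and is no evidence that the rises were equal. The lowest p-values among the members were those of LOC112444922, with a rise smaller in edited embryos by 2.05 on the log2 scale (limma adjusted p-value 0.0638), and LOC538435, larger by 1.74 (limma adjusted p-value 0.0864). The same tool called 41 of the 193 higher at the 8-cell stage in controls, where 2.75% of the tested genes were called higher, and 35 in edited embryos, where 1.45% were. The rule used these contrasts, and nothing is read from these counts.

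Outside the 193, the genes whose levels followed the median profile of the set most closely over the 8 libraries were CCNB2, a B-type cyclin (Pearson r 0.983), the mitotic kinase AURKA (0.972), DNAAF10 (0.970), GINS2 of the replicative helicase (0.970) and TFAP2B (0.968). CCNB2 stood at 452 and 529, then 689 and 649.8 CPM in controls, and at 632 and 524, then 792 and 818 CPM in edited embryos. AURKA had ratios of 1.40 and 1.63 and so fell short of the rule in controls. These 8 points share libraries and depth with the set, and the values of r are a description.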

How the data were processed

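RNA-seq libraries of 8 pools of 5 embryos were deposited by the authors as 1 table of CPM (reads per 1000000) for 16606 genes in 12 columns. Of these, 4 columns match no sample used here and entered no step. Per the submitters' processing notes the tools were Trim Galore 0.6.7, HISAT2 2.2.1 and featureCounts 2.0.1. The genome build, annotation, strand setting and any filter are not given in the sources used here. In all 8 columns 100% of the positive values were whole multiples, within 0.05 reads, of 1 step per library, so reads were recovered. Libraries held 33527531 to 35122409 reads, 3 reads are 0.0858 to 0.0899 CPM, and intervals cover counting error only.

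The rule was applied to the deposited CPM. limma 3.58.1 (R 4.3.3) with an intensity trend was fitted to log2(CPM + 1), which understates changes of weak genes, over 12129 genes (mean of 1 CPM or more), with 1 mean per group over all 8 libraries and Benjamini-Hochberg adjustment over all tested genes (limma adjusted p-values). edgeR 4.0.16 and DESeq2 1.42.0 on the recovered reads were alternatives. Members and gene lists were chosen with earlier results of these data known. Named genes are the members with a symbol that are most abundant, steepest, or lowest in p-value, up to 5 per list, those next to the threshold, the activation list, RPL12 and the genes most like the median profile. LOC genes and those named by role were added after their values were seen. Same-numbered libraries did not deviate together, with correlations of -0.30 to 0.11, so the numbers were not used as pairs.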

Additional observations from a re-analysis of the deposited data

How the results depend on the processing

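Edited against control, the 51 members called averaged over stages numbered 34 to 67 under other pseudocounts, filters, scalings and count tests, and 48 with a replicate block. With the marker covariate 1 was called, beside 0 in 4-cell and 1 in 8-cell embryos, with 944, 1185 and 875 genes at an unadjusted limma p-value under 0.05. MTERF3 (-0.071), DDIT3 (-0.024), DUXA (-0.84), ALDH1A2 (-0.048), H1-6 (-0.48), LOC538929 (-1.15), LOC619140 (-0.035), LOC508834 (-1.14) and TRPM8 (0.023) changed sign with it. Of the 28 called members followed over the settings, no other sign change was seen. Without a change of sign, the calls of LOC538929 and LOC619140 were lost in 7 settings each and that of DUXA in 8. The 167 members with a positive value were 173 under TMM scaling and 169 under DESeq2 size factors. Without a filter on low values 11 members were called in 4-cell and 3 in 8-cell embryos. At the 8-cell stage 22 were called with only the libraries compared and 4 with edgeR. Leaving out 1 library gave 28 to 61 averaged, 7 to 36 in 4-cell and 4 to 15 in 8-cell embryos.

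The counts over all genes moved more. Stage in controls (1094) gave 1 without a filter (3755 genes at an unadjusted limma p-value under 0.05), 11 with the covariate, 161 with only the libraries compared, 86 with edgeR and 1690 with a crossed block, chosen after seeing the data. Stage in edited embryos (628) gave 17, 314, 1149 and 324, and 1286 with DESeq2. The interaction (480) gave limma 0 without a filter (2993 at an unadjusted p-value under 0.05), 16 with the covariate, 18 with edgeR, 1065 with DESeq2 and 864 with the crossed block. With the replicate block these were 985, 554 and 386. Leaving out 1 library gave 13 to 2114, 7 to 966 and 0 to 1396. Both limma zeros there, without either 4-cell edited library, had 2748 and 2376 genes at an unadjusted p-value under 0.05. The causes were not tested.

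The 193 members numbered 481 with the lower minimum ratio tried, 62 at 2 and 100 at 10 CPM. Under TMM scaling 174 of the 193 were kept and under DESeq2 size factors 147, with all 28 steep genes in both. Leaving out 1 library gave 186 to 388, with 308 without 4-cell control library 2 and 388 without 4-cell edited library 1, and kept 27 or 28 of the steep genes. With 2 libraries a group, a lone library is assumed to vary like the other groups. Promoter motifs and gene structure were planned and not run, since no promoter sequence or build was at hand here.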

Other observations

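NFYB, a subunit of the CCAAT-binding factor NF-Y and not one of the 193 genes, stood at 232 and 241 CPM in 4-cell controls, at 358 and 360.2 CPM in 8-cell controls, at 358 and 370.3 CPM in 4-cell edited and at 357 and 363 CPM in 8-cell edited embryos. It was thus higher at the 8-cell stage in controls only, and its 4-cell edited values matched the 8-cell controls. POU5F1, the pluripotency factor OCT4, stood at 27.2 and 35.3, then 35.1 and 40.2 CPM in controls, and at 38.0 and 20.8, then 45.1 and 68.6 CPM in edited embryos. The stages overlapped in controls, and in edited embryos both 8-cell libraries were above both 4-cell libraries, with a ratio of 1.93.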
